A study of Mus musculus with 2 samples.

Results

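Elane-high cells were the cells of the E-cadherin+cKIT+ library that devoted a large share of their RNA to neutrophil elastase (Elane) and proteinase 3 (Prtn3), and the rule selected 514 of them. The rule took cells with at least 2000 unique molecular identifiers (UMIs, one per captured RNA molecule) in which Elane and Prtn3 together made up at least 0.5% of UMIs. It left out cells with 3 or more UMIs of Prg2, with Camp, Ngp and Ltf at 0.3% of UMIs or more, or with Mcpt8 at 0.5% or more, which are genes of eosinophil, secondary and basophil granules. Of the 6220 cKIT+ cells with at least 2000 UMIs, 8.26% were Elane-high (95% interval 7.59% to 8.98%, exact binomial). The cKIT+ library held 6632 cells and the series 10377. Intervals throughout are 95% and cover counting error only, since each sorted population was 1 library without a replicate and no test between populations was possible.

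Bone marrow cells with surface E-cadherin were sorted from mice into a population with the receptor cKIT, found on progenitors, and one without it (E-cadherin+cKIT-), to ask how each relates to precursors of basophils and mast cells. The labels give strain FVB for both samples. The study calls the mice wild-type in its text and VaviCre; mTmG in a legend, that is, carrying Cre driven in blood cells and a fluorescent reporter, with several mice pooled. Neither name includes the floxed Cdh1 allele used elsewhere in the study. Treatment and age are not given in the sources used here, and both libraries share whichever genotype applies. A sort of this kind pools cells of every lineage that passes the gate, so cells of 1 library share their animals, sort and chip. The cKIT+ library held 95477153 UMIs with a median of 13074 per cell, and the cKIT- library 24033994 UMIs with a median of 4436. The libraries shared 10 cell barcodes, and 0 of them belonged to an Elane-high cell. Elane-high cells were deep, with a median of 25632 UMIs (quartiles 19924 and 33080, range 2063 to 62701) and 4716 genes per cell, against a median of 13058 UMIs in the other 5706 cKIT+ cells. They made up 14.1% of the library's UMIs. Mitochondrial genes took a median of 3.82% of their UMIs, with a highest value of 33.4%.

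Neutrophils and monocytes arise from a shared progenitor in bone marrow, the granulocyte-monocyte progenitor. Cells at this stage and at the promyelocyte stage after it make the primary, or azurophil, granule, a store of myeloperoxidase and of serine proteases such as elastase, proteinase 3 and cathepsin G. The proteins of secondary granules, such as lactoferrin and cathelicidin, are made later. The transcription factors C/EBPα and PU.1 act early in this lineage, GFI1 and C/EBPε drive granulocyte development, and IRF8 and KLF4 drive monocyte development.

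The share of UMIs from Elane and Prtn3 chose the cells, so its values describe the set and are not a finding. It had a median of 1.94% (quartiles 1.11% and 2.90%) and reached 5.00%. Of the cells with enough UMIs, 628 passed the limit on Elane and Prtn3. The other limits then left out 18 cells for Prg2, 64 for Camp, Ngp and Ltf, and 32 for Mcpt8. The distribution had no gap at the limit. The 24 cells just outside it (0.4% to 0.5%, other limits met) had an Elane level of 2341 CPM (UMIs per 1000000 UMIs) and the 20 cells just inside it (0.5% to 0.6%) one of 3246 CPM. Mpo was at 6575 CPM just outside and 7766 CPM just inside, Cd34 at 221 and 197 CPM, and Ly6c2 at 62.6 and 216 CPM. The 32 cells left out for Mcpt8 had a median of 38332 UMIs and carried 11021 CPM of the basophil protease Prss34, against 167 CPM in the Elane-high cells.

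**Figure D1:**
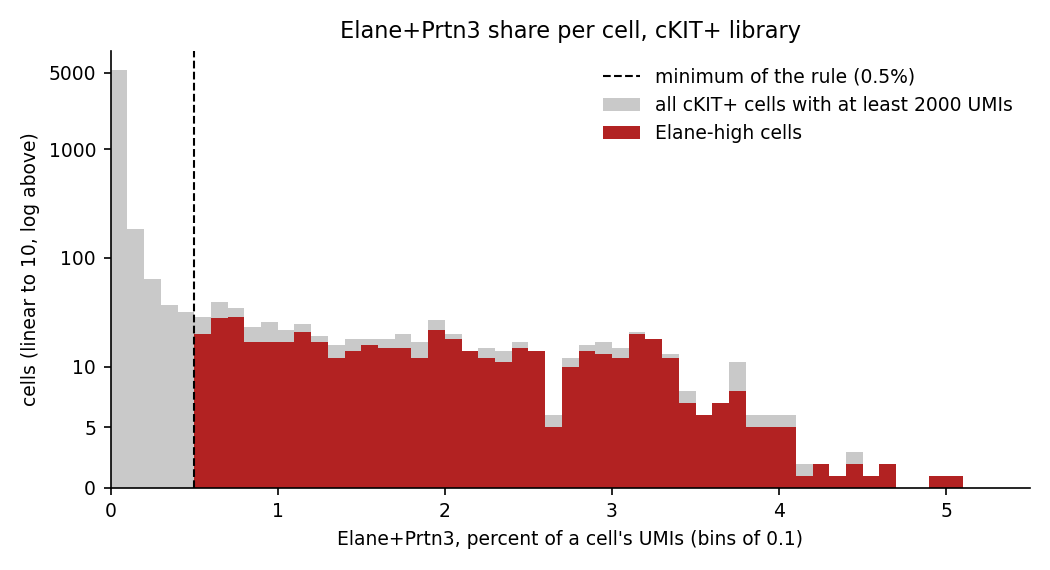
Number of cKIT+ cells with at least 2000 UMIs (vertical axis, linear up to 10 cells and logarithmic above) by the share of their UMIs from Elane and Prtn3 (horizontal axis, percent). Grey bars are all 6220 cells and red bars the 514 Elane-high cells, which start at the dashed limit of 0.5% without a gap in the grey bars. Grey above red marks cells left out by the other limits.

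The label of these cells as granulocyte-monocyte progenitors was compared with marker genes. Elane and Prtn3 were fixed by the rule and check nothing. Of the other genes given for these cells, Mpo was at 9566 CPM, against 3207 CPM in the basophil-gene cells described below, Prss57 at 398 against 38.6 CPM, Alas1 at 738 against 42.5 CPM and Ly6c2 at 937 against 2.36 CPM. Of 16 genes listed for granulocyte-monocyte progenitors, 15 reached 50 CPM in Elane-high or in the other cKIT+ cells. Of these, 10 had a ratio above 1, as did 58.6% of all genes compared. The median log2 ratio of the 15 was 0.60, against 0.10 over all genes. Cd34, a surface marker of progenitors, was at 84.1 CPM and Kit, which encodes the receptor used in the sort, at 54.9 CPM (51.0 to 59.0). Fcgr3, an Fc receptor used to gate these progenitors, was at 85.2 CPM and lower than in the other cKIT+ cells (192 CPM). Flt3, a receptor of earlier progenitors, was at 0.669 CPM, and the stem cell marker Ly6a at 4.38 CPM. Camp, Ngp and Ltf were low by the rule, but the cells with the most Elane and Prtn3 also carried S100a8 and Fcnb, genes of later neutrophil stages, and nearly lacked Cd34. Summed over 51 cells with 3 or more Irf8 UMIs, several monocyte genes were higher than in the other Elane-high cells. The set thus spanned several expression states, described below, and the cells are called Elane-high here.

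Levels are given beside those of 4 other sets of cKIT+ cells, each chosen by its own genes. These were 206 cells with Prg2, an eosinophil granule gene, 392 secondary-granule cells with Camp, Ngp and Ltf, 199 monocyte-gene cells with Csf1r, Ly86, F13a1, Ms4a6c, Ccr2 and Mpeg1, and 3013 basophil-gene cells with Mcpt8. Their median UMIs were 10194, 13132, 6284 and 14184. The Prg2 and secondary-granule cells were not limited on Elane, so cells left out of the Elane-high set for Prg2 or for Camp, Ngp and Ltf can fall among them.

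The proteases of primary granules come first. Elane (ENSMUSG00000020125, chromosome 10, 79886247 to 79888215, GRCm38, plus strand) was at 12929 CPM (12868 to 12990), and ranged among cells from 0.0479% to 3.47% of UMIs with a median of 1.23%. Prtn3 (ENSMUSG00000057729, chromosome 10, 79874476 to 79883174, plus strand) was at 7798 CPM (7751 to 7845), with a median of 0.680% per cell. Both chose the cells, so their contrast with other sets is a description. Elane was at 3979 CPM in secondary-granule cells, 758 CPM in Prg2 cells, 72.9 CPM in monocyte-gene cells and 44.5 CPM in basophil-gene cells. The sum in secondary-granule cells came from few cells, since the median cell there had 0.00629% of its UMIs from Elane and Prtn3 and the highest 5.23%. In basophil-gene cells, 33.8% of cells still had an Elane UMI, so single UMIs were not read as expression.

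Elane and Prtn3 lie close together on chromosome 10, and Prss57, a further granule protease, lies on the same chromosome from 79781474 to 79790961. Upstream sequences of Elane, Prtn3 and Mpo are shown because Elane and Prtn3 chose the cells and Mpo is another marker given for them whose window held a match. RefSeq promoters (GRCm38.p6, 250 bases before to 50 after the start) were found for 5 of 6 genes looked up (Elane, Prtn3, Mpo, Ctsg and Ms4a3). Each was searched on both strands for GAGGAAGT, a PU.1-type motif, CAACGG, a MYB-type motif, and TTGCNNAA, a C/EBP-type motif. Sequences run 5′ to 3′ on the plus strand with matches in capitals, at chr10:79886162-79886266 for Elane, chr10:79879517-79879616 for Prtn3 and chr11:87793534-87793580 for Mpo.
Elane: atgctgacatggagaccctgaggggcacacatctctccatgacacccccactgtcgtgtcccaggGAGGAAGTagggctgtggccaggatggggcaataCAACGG
Prtn3: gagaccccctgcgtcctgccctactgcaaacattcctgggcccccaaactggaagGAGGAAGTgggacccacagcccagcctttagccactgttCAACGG
Mpo: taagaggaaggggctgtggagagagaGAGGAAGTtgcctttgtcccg
Elane held GAGGAAGT from -85 to -78 and CAACGG from -51 to -46, counted from the RefSeq start, and Prtn3 held them in the same order from -95 to -88 and from -56 to -51. Mpo held GAGGAAGT from -224 to -217. Ms4a3 held TTGCNNAA from 42 to 49 after the start, and none of the 3 motifs was found in the Ctsg window. Over all 32851 promoters in the table, GAGGAAGT occurred in 3.20%, CAACGG in 5.12% and TTGCNNAA in 10.8%. A match describes letters and not a bound site. GENCODE M21 places the starts of the untranslated regions upstream of RefSeq's, so the last 20 bases shown for Elane and the last 3 for Prtn3 fall in its 5′ untranslated region. The GENCODE span given above for the Prtn3 gene begins further upstream, so the whole Prtn3 sequence shown lies inside that span. For Mpo, GENCODE places the start of the untranslated region 203 bases before RefSeq's, directly after the last base shown.

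The other granule genes were not used by the rule. Mpo, which encodes myeloperoxidase, the enzyme that makes hypochlorous acid, was at 9566 CPM (9514 to 9619) in Elane-high cells, 5123 CPM in Prg2 cells, 3207 CPM in basophil-gene cells, 1736 CPM in secondary-granule cells and 259 CPM in monocyte-gene cells. A Mpo UMI was found in every Elane-high cell, but also in 98.6% of basophil-gene and 97.6% of Prg2 cells, and its share of UMIs in Elane-high cells ran from 0.126% to 3.46% with a median of 0.933%. Ctsg, which encodes cathepsin G, was at 6207 CPM (6165 to 6249) in Elane-high cells and at 4415 CPM in basophil-gene cells. It lies on chromosome 14 (56099881 to 56102574) near the basophil protease Mcpt8 (56082166 to 56085273). Its ratio over the other cKIT+ cells was 1.93 (1.91 to 1.94), against 23.9 (23.6 to 24.1) for Elane. Prss57 was at 398 CPM (388 to 409), with 209 CPM in Prg2 cells as its next highest level. Ms4a3, a membrane protein gene used to trace granulocyte-monocyte progenitors, was at 2128 CPM (2104 to 2153) and present in all 514 cells, but was also at 1209 CPM in Prg2 cells and 1186 CPM in basophil-gene cells. A Ms4a3 UMI was found in 94.2% of Prg2 cells and 96.6% of basophil-gene cells.

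Among 3076 genes with at least 50 CPM on either side, 35 (1.14%) were at least 4-fold higher in Elane-high cells than in the other cKIT+ cells, and 124 (4.03%) at least 4-fold lower. As the cells were selected on expression, these counts describe the set. A gene that reached 50 CPM on one side alone had to differ, so counts of list members compared are descriptions as well. Of 16 primary granule genes, 15 were compared, with 3 past 4-fold higher (Elane, Prtn3 and Prss57) and 1 lower (Lyz2, lysozyme). Their median log2 ratio was 0.49, against 0.10 over all genes compared. Lyz2 was at 213 CPM, whereas secondary-granule and monocyte-gene cells had 10089 and 10343 CPM. Serpinb1a, an inhibitor of elastase and cathepsin G, was at 890 CPM against 403 CPM in the other cells. Srgn, the proteoglycan that packs granule proteases, differed little (2847 and 2592 CPM), and Ctsc, the enzyme that activates them, was at 40.7 CPM against 61.0 CPM.

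Beyond the granule, the genes with the largest ratios among those with at least 200 CPM were Ly6c2, Alas1, Gstm1, Rgcc, Mt1, Dstn, Lta4h, Ifngr1 and Igsf6. Ly6c2, a surface antigen of myeloid progenitors and monocytes, was at 937 CPM in Elane-high cells, 650 CPM in secondary-granule cells, 411 CPM in monocyte-gene cells, 21 CPM in Prg2 cells and 2.36 CPM in basophil-gene cells. Alas1, the first enzyme of heme synthesis in non-erythroid cells, was at 738 CPM, a ratio of 9.89 (9.58 to 10.2) over the other cells. Other heme genes did not share this ratio. Of 12 heme genes, 4 were compared and Alas1 alone passed 4-fold higher, against 1.14% of all genes. The median log2 ratio was 0.26, against 0.10 over all genes. Alad was at 66.7 against 111 CPM, and Alas2, the erythroid form, was at 0.149 CPM. Gstm1, a glutathione transferase, was at 492 CPM against 56.7 CPM. Lta4h, which makes the neutrophil attractant leukotriene B4, was at 315 CPM against 83.1 CPM, and Ifngr1, a chain of the interferon-gamma receptor, at 506 CPM against 144 CPM.

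Lineage factors come next. Gfi1 was at 102 CPM (96.4 to 107) in Elane-high cells, 44.0 CPM in secondary-granule cells, 27.0 CPM in Prg2 cells, 6.10 CPM in basophil-gene cells and 0.715 CPM in monocyte-gene cells. Cebpe was at 315 CPM (305 to 325), below Prg2 cells (946 CPM) and secondary-granule cells (709 CPM) and far above basophil-gene cells (5.66 CPM). Cebpa was at 86.2 CPM, against 336 CPM in basophil-gene cells, 85.8 CPM in monocyte-gene cells, 51.1 CPM in Prg2 cells and 40.2 CPM in secondary-granule cells. Gata2, a factor of basophil, mast and stem cells, was at 21.7 CPM against 722 CPM in basophil-gene cells, Gata1 at 1.78 CPM and Runx1 at 62.1 CPM against 396 CPM. Spi1, which encodes PU.1, was at 276 CPM and Myb at 505 CPM. Of 30 listed transcription factors, 17 were compared, with 2 past 4-fold higher (Gfi1 and Irf8) and 3 lower (Runx1, Gata2 and Id2). Over all genes, 1.14% were higher and 4.03% lower. The median log2 ratio of the listed factors was -0.50, against 0.10 over all genes. Irf8 came from few cells, described further on, and was at 0 UMIs in 437 of the 514.

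Among cytokine receptors, Csf3r, the receptor for the granulocyte factor G-CSF, was at 46.1 CPM (42.5 to 49.9) in Elane-high cells and 43.3 CPM in secondary-granule cells, against 5.15 CPM in Prg2 cells and 0.418 CPM in basophil-gene cells. Csf2rb, the shared chain of the IL-3, IL-5 and GM-CSF receptors, was at 29.7 CPM against 267 CPM in basophil-gene cells, and Il3ra at 32.2 against 168 CPM. Csf2ra, the GM-CSF-specific chain, ran the other way, at 69.7 against 21.9 CPM. Of 20 receptor genes, 7 were compared, with 0 past 4-fold higher and 2 lower (Csf2rb and Csf2rb2), against 1.14% and 4.03% of all genes, and a median log2 ratio of -1.0 against 0.10. Csf3r was below 50 CPM on both sides and so was not compared.

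**Figure D2:**
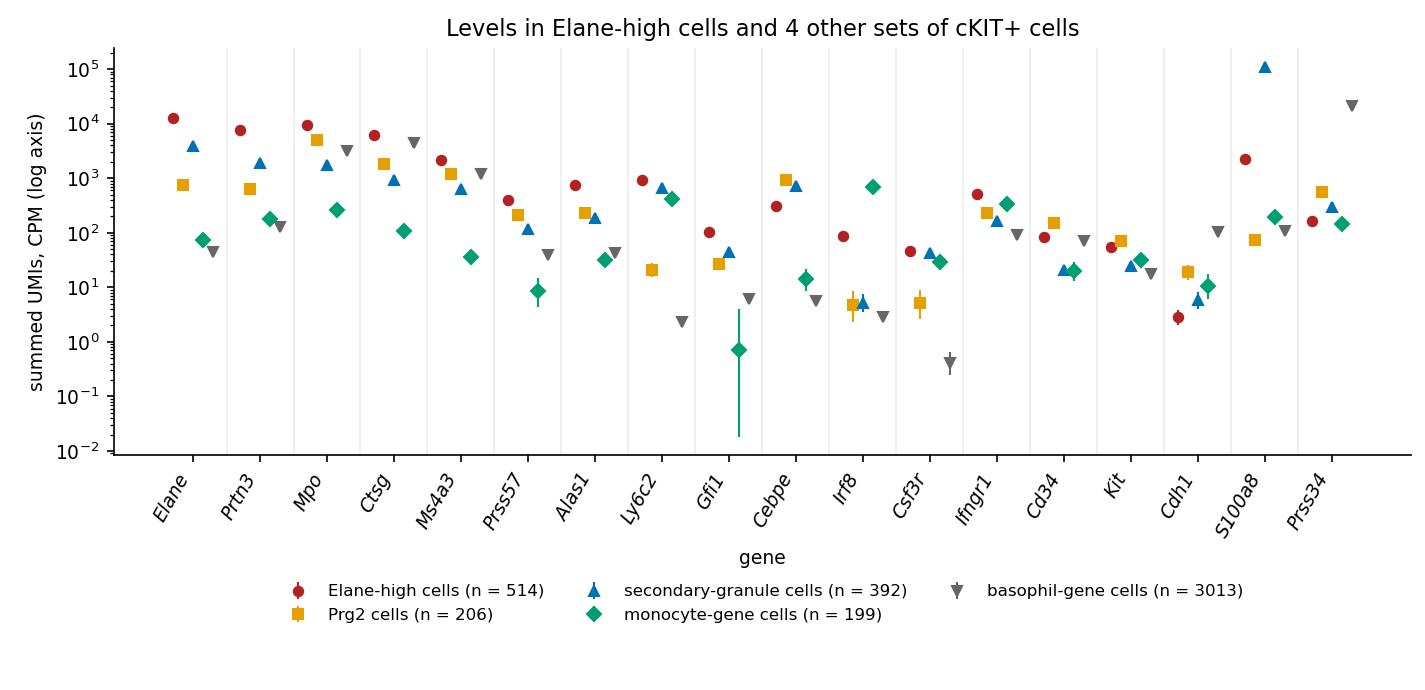
Summed UMIs in CPM (log axis) of 18 genes in Elane-high cells and 4 other sets of cKIT+ cells, with 95% Poisson intervals that cover counting error only and are often smaller than the symbols. Elane-high cells (red) lie above the other sets for Elane, Prtn3, Mpo, Ctsg, Ms4a3, Prss57, Alas1, Ly6c2 and Gfi1, below Prg2 and secondary-granule cells for Cebpe, and lowest of all for Cdh1 at 2.82 CPM.

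Many genes of other lineages were low in the Elane-high cells. Of 10 basophil markers, 8 were compared and 7 were at least 4-fold lower, against 4.03% of all genes compared. The basophil proteases Prss34 and Mcpt8 were at 167 and 241 CPM, against 21408 and 21176 CPM in basophil-gene cells, and Mcpt8 was limited by the rule. Without the cells of highest Scrublet score, 15 of them Elane-high, Prss34 was at 108 CPM. Il4 was at 0. The basophil list summed to 741 CPM, with Mcpt8 (241 CPM) its most abundant gene, and 79.2% of Elane-high cells had at least 1 Prss34 UMI. At 10000 UMIs per cell this share was 48.6%, close to that of secondary-granule cells (54.3%), which were chosen by Camp, Ngp and Ltf. The mast cell protease genes Mcpt4, Tpsb2 and Tpsab1 were at 0, and the mast list summed to 12.5 CPM. Eosinophil, erythroid and megakaryocyte lists summed to 49.9, 95.7 and 17.1 CPM, led by Siglecf (19.7 CPM), Tfrc (50.2 CPM) and Itga2b (14.4 CPM). Prg2, the most abundant eosinophil gene in Prg2 cells, was limited by the rule. Of 12 erythroid markers, 6 were compared with the other cells. Hba-a1, Car1, Car2, Hbb-bs and Hbb-bt were at least 4-fold lower, against 4.03% of all genes. Tfrc was higher, with a log2 ratio of 1.22. Macrophage markers summed to 77.5 CPM, led by Vcam1. Dendritic cell markers summed to 137 CPM with Xcr1 at 0, and B cell markers to 91.3 CPM. Of the T and NK cell markers, Nkg7 was at 1347 CPM while Cd3e, Cd3g, Gzma and Ncr1 were at 0. Nkg7 was also at 883 CPM in basophil-gene cells. Secondary granule genes were at least 4-fold lower in 6 of 11 compared (Camp, Ngp, Ltf, Lcn2, Chil3 and S100a9), against 4.03% of all genes. The rule limited 3 of these 6.

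Cdh1, which encodes the E-cadherin that the sort required (chromosome 8, 106603351 to 106670246), was at 2.82 CPM in Elane-high cells, from 38 UMIs in all. It was at 103 CPM in basophil-gene cells, 18.9 CPM in Prg2 cells and 5.87 CPM in secondary-granule cells. A Cdh1 UMI was found in 5.06% of Elane-high cells (3.33% to 7.32%) and 73.1% of basophil-gene cells. With each cell drawn to 10000 UMIs, the shares were 2.29% of 481 cells (1.15% to 4.05%) and 59.7% of 2413 cells (57.7% to 61.6%). The cells were sorted on surface E-cadherin, but no protein level of each single cell was available here to set beside its RNA.

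Programmes of growth were compared as shares of 5000 UMIs per cell. Ribosome biogenesis genes such as Npm1, Ncl and Nop10 took a median of 0.630% (quartiles 0.50% and 0.780%) in Elane-high cells, 0.540% in Prg2 cells, 0.360% in basophil-gene cells and 0.0600% in secondary-granule cells. All 17 of them compared with the other cKIT+ cells had a ratio above 1 (median log2 0.57), against 58.6% of all genes compared, though none passed 4-fold. S phase genes took a median of 0.270%, close to basophil-gene cells (0.260%), and G2 and M phase genes a median of 0.140% in both sets. Protein folding genes of the endoplasmic reticulum were likewise similar, with medians of 1.02% and 1.08%, and 0.160% in secondary-granule cells. No cell was called as cycling from these shares.

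The Elane-high cells were not uniform. They were divided into 4 equal groups by the Elane and Prtn3 share, with 129, 128, 129 and 128 cells, medians of 0.751%, 1.5%, 2.36% and 3.33%, and median UMIs of 21901, 27936, 26163 and 26134. Of 2911 genes with at least 50 CPM in either the highest or the lowest group, rule genes apart, 70 (2.40%) were at least 2-fold higher in the highest group and 49 (1.68%) at least 2-fold lower. Under TMM scaling, which moved all log2 ratios between these groups by 0.14, the counts were 93 and 40.

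Several other granule genes followed the Elane and Prtn3 share in small steps, and others did not. Mpo was at 7220, 8671, 10550 and 11466 CPM from the lowest to the highest group, Ctsg at 4042, 5453, 6940 and 8068 CPM, and Ms4a3 at 1415, 1844, 2363 and 2786 CPM. Each step was larger than the counting intervals. Prss57 was at 233 and 576 CPM in the outer groups, Srgn at 1669 and 4073 CPM and Serpinb1a at 613 and 1247 CPM. Cd63, a membrane protein of the granule, was at 1215, 1043, 1124 and 1240 CPM. Of 13 primary granule genes compared, 4 were at least 2-fold higher (Prss57, Srgn, Serpinb1a and Hk3) and 2 lower (Ctsc and Lyz2). Over all genes, 2.40% were higher and 1.68% lower. The median log2 ratio of the 13 was 0.67, against -0.08 over all genes. Lyz2 was at 446 CPM in the lowest group and 148 CPM in the highest, but 1 cell held 30.3% of its UMIs in the lowest group, and without the cells with 3 or more Irf8 UMIs described below its levels were 63.6 and 144 CPM, the opposite direction. Cell by cell at 10000 UMIs, Spearman correlations of the Elane and Prtn3 share over 481 cells were 0.67 with Ctsg, 0.60 with Ms4a3 and 0.54 with Mpo. The cells share 1 library, so these are descriptions.

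Neutrophil genes of a later stage appeared in the upper groups. S100a8, one chain of calprotectin, was at 76.4, 145, 1204 and 7372 CPM, a ratio of 96.5 (84.6 to 111) between the outer groups. It was detected at 10000 UMIs in 40.2%, 47.5%, 79.4% and 96.7% of cells. A UMI was also found in 38.7% of basophil-gene cells, close to the share in the lowest group. The source of these UMIs was not tested. The sums were not carried by 1 cell, since the cell with most UMIs held 4.01% of them in the highest group and the median cell there had 4101 CPM. S100a9 was at 70.5 and 2650 CPM in the outer groups, but the median cell of the highest group had only 336 CPM. Fcnb, a ficolin of neutrophil granules, was at 9.68, 8.96, 42.9 and 277 CPM and found in 3.57%, 8.20%, 24.6% and 69.4% of cells, against 0.373% of basophil-gene cells. In the lowest group, 1 cell held 39.3% of the Fcnb UMIs. Without the cells with 3 or more Irf8 UMIs described below, Fcnb was at 2.31 and 300 CPM in the outer groups. Wfdc21, Trem3 and Hp also ranked among the largest ratios, at 409 against 5.53 CPM, 235 against 32.5 CPM and 716 against 189 CPM. Camp was at 202 against 22.8 CPM, below the limit of the rule by construction. Of 9 neutrophil branch genes compared, 6 were at least 2-fold higher (Cebpd, Fcnb, Gstm1, S100a8, S100a9 and Chil3) and 0 lower. Over all genes, 2.40% were higher and 1.68% lower. Of the 6, Fcnb and Chil3 (111 against 8.29 CPM) passed the 50 CPM minimum through the highest group alone. All 6 NADPH oxidase genes had a ratio above 1, as did 37.9% of all genes compared, and Ncf1 passed 2-fold (145 against 59.8 CPM).

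Ly6c2 was at 415, 678, 956 and 1635 CPM, while the median cell of the lowest group had 55.1 CPM and that of the highest 1637 CPM. Cells with 3 or more Irf8 UMIs, described next, carried part of the Ly6c2 of the lower groups. Without them the outer groups had 105 and 1619 CPM.

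Cd34 and several genes named by their ratio were lower in the groups with more Elane and Prtn3. The granulocyte-monocyte progenitor list did not run that way as a whole, with 1 of 15 genes at least 2-fold higher (Gstm1), 2 lower (Cd34 and Irf8) and a median log2 ratio of 0.15, against 2.40% higher, 1.68% lower and a median of -0.08 over all genes. Cd34 (chromosome 1, 194938819 to 194961279) was at 177 CPM (162 to 193) in the lowest group, then 111 and 53.3 CPM, and 9.11 CPM (6.19 to 12.9) in the highest. It was found in 75%, 60.7%, 36.5% and 7.44% of cells at 10000 UMIs, and in 12.2% of secondary-granule cells. Kit did not share this pattern, at 58.4, 53.5, 57.2 and 51.1 CPM and in 40.2%, 44.3%, 42.1% and 38.8% of cells, with overlapping intervals. Cpa3, a carboxypeptidase of mast cells and basophils that early progenitors also carry, was at 349 CPM in the lowest group and 19.4 CPM in the highest, and Apoe at 224 and 27.6 CPM. S100a10, Tmsb10, Emb, Fabp5 and Lgals1 were 13.2-fold, 7.37-fold, 6.80-fold, 3.48-fold and 2.66-fold lower in the highest group. Without the Irf8 cells described next, S100a10 was at 175 CPM in the lowest group and 25.6 CPM in the highest, and Emb at 76.7 and 28.6 CPM, so these cells carried part of both differences. Myb was at 613, 536, 492 and 396 CPM, and ribosome biogenesis genes summed to 7161 CPM in the lowest group and 5540 CPM in the highest.

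The factors that mark the granulocyte branch did not move alike. Gfi1 was at 72.6, 82.3, 107 and 141 CPM, and Csf3r at 33.2, 35.3, 54.9 and 59.1 CPM. Cebpe was at 393, 264, 277 and 342 CPM, with no order along the groups, and its Spearman correlation with the Elane and Prtn3 share was -0.08. Without the Irf8 cells described next, Cebpe was at 471 CPM in the lowest group and 348 CPM in the highest. Gfi1 was then at 90.2 and 144 CPM. Over all Elane-high cells, Cebpa (86.0 and 92.3 CPM) and Spi1 (268 and 305 CPM) differed little between the outer groups.

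**Figure D3:**
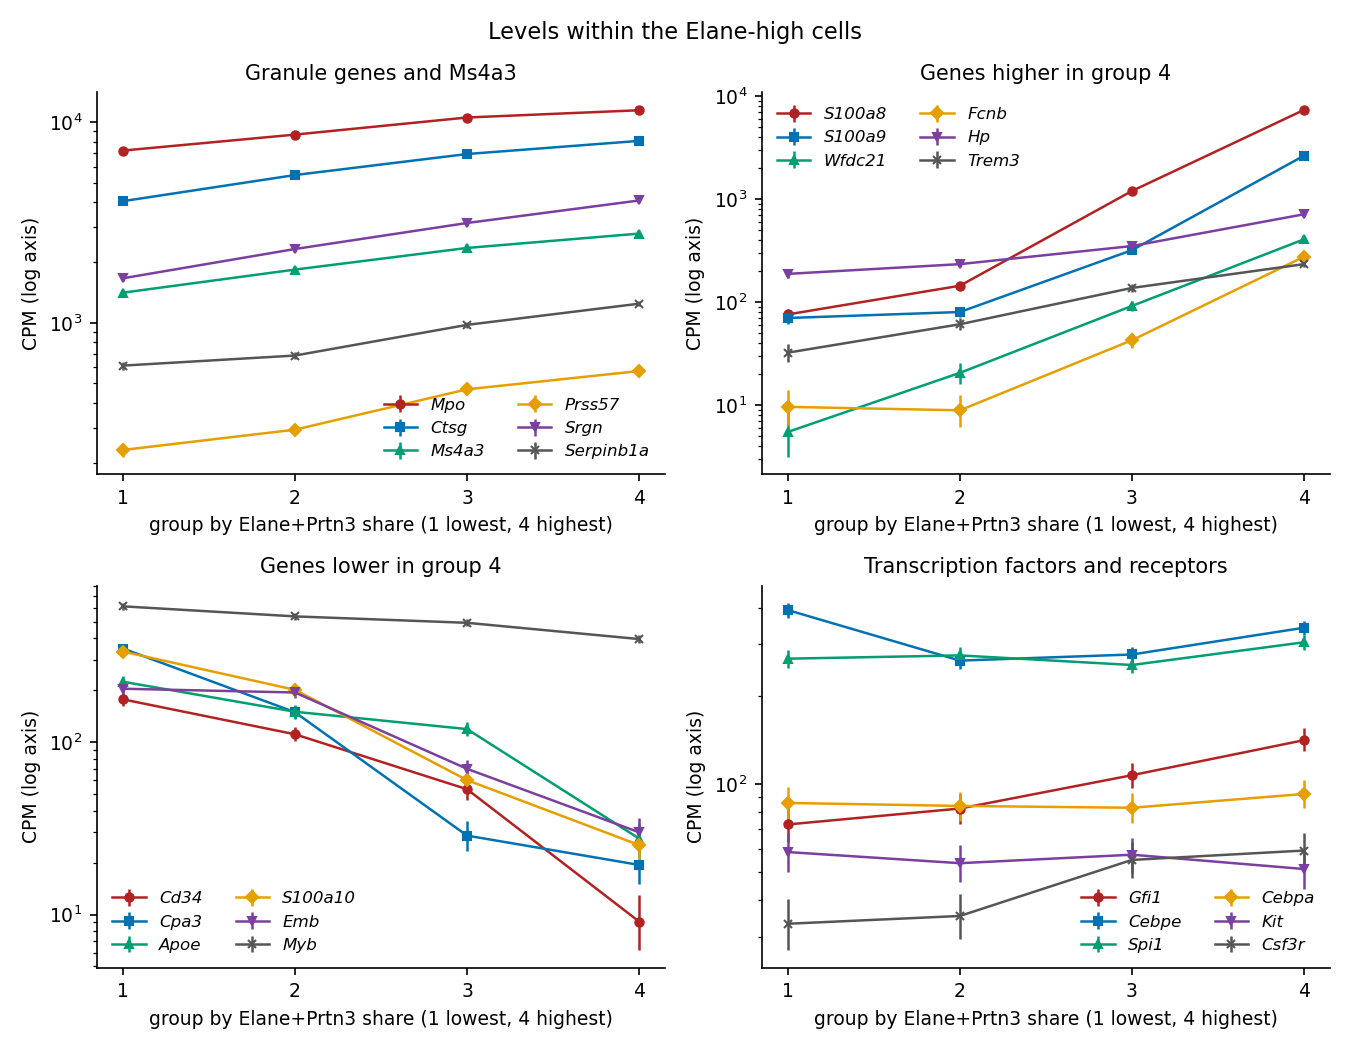
Summed UMIs in CPM (log axes) in the 4 groups of Elane-high cells ordered by their Elane and Prtn3 share, from 1 (lowest, 129 cells) to 4 (highest, 128 cells), with 95% Poisson intervals for counting error. Mpo and Ctsg climb in small steps, S100a8 goes from 76.4 to 7372 CPM, Cd34 from 177 to 9.11 CPM, and Kit stays between 51.1 and 58.4 CPM.

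Irf8, the monocyte and dendritic cell factor, was concentrated in few cells. It had 0 UMIs in 437 Elane-high cells, 1 in 21 cells, 2 in 5 cells, 3 to 9 in 12 cells and 10 or more in 39 cells, up to 54. Cells with at least 3 UMIs, a limit chosen after these values were seen, are called Irf8 cells. They numbered 51, or 9.92% (7.48% to 12.8%), with a median of 31721 UMIs against 25238 in the other 463 cells. The 4 groups by the Elane and Prtn3 share held 22, 19, 9 and 1 of them. Scrublet, a doublet caller, marked 292 of 6632 cells (4.40%), of which 13 were Elane-high and 2 were Irf8 cells. The median Scrublet score was 0.0769 in Irf8 cells and 0.0295 in the others. The limits on genes and UMIs per cell in the study's methods would remove 27 Elane-high cells, 8 of them Irf8 cells. Without the cells of highest Scrublet score, 46 genes were at least 4-fold higher in Irf8 cells and 18 lower, against the 45 and 15 given next. The part of depth in the split was not tested.

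Among 3022 genes with at least 50 CPM on either side, Irf8 apart, 45 (1.49%) were at least 4-fold higher in Irf8 cells and 15 (0.496%) at least 4-fold lower. The monocyte branch genes at least 4-fold higher were Klf4, Csf1r, Ly86, Ccr2, F13a1, Ms4a6c, Ctss and Mpeg1, each under 50 CPM in the other cells, so that their number was largely set by the 50 CPM minimum. Zeb2, which passed the minimum on both sides, was at 239 against 106 CPM. Klf4 was at 132 CPM in Irf8 cells and 0.421 CPM in the others, from 208 and 5 UMIs. At 10000 UMIs it was found in 54.0% of 50 Irf8 cells (39.3% to 68.2%) and 0.696% of 431 others. Ccr2, a chemokine receptor of monocytes, was at 98.1 against 1.09 CPM and found in 52.0% against 0.696% of cells. Ms4a6c was at 462 against 2.36 CPM and F13a1, a coagulation factor chain made by monocytes, at 408 against 15.7 CPM. Csf1r, the receptor for M-CSF, was found in 42.0% against 3.02% of cells. Lgals3, Ifi202b, S100a6, Prdx4, Il6st and Tpm4 were further genes with the largest ratios, each found in 50% to 70.0% of Irf8 cells. No cell held more than 23.2% of the UMIs of any of these genes in the Irf8 cells. Lyz2 was at 1096 against 95.1 CPM, and 22.6% of its UMIs in Irf8 cells came from 1 cell.

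Several granulocyte genes were lower in the same cells. Gfi1 was at 13.3 CPM (8.23 to 20.3) in Irf8 cells and 114 CPM (108 to 120) in the others, and Cebpe at 58.9 and 349 CPM. Pglyrp1, a bactericidal granule protein, was at 34.8 against 391 CPM, Cd63, a granule membrane protein, at 180 against 1281 CPM. S100a8 was at 279 against 2501 CPM, with 43.3% of its UMIs in Irf8 cells from 1 cell, and S100a9 at 60.8 against 890 CPM. Of the 51 Irf8 cells, 41 lay in the 2 groups with the lower Elane and Prtn3 share, so the split was repeated within these groups, against their 216 other cells, a comparison added after the values were seen. There Gfi1 was at 8.90 against 94.3 CPM, Cebpe at 56.6 against 384 CPM, Pglyrp1 at 14.6 against 262 CPM and Cd63 at 108 against 1359 CPM. S100a8 was at 93 CPM (76.8 to 112) against 119 CPM (110 to 129), with 35.7% of its UMIs in these Irf8 cells from 1 cell. S100a9 was at 52.6 CPM (40.6 to 67.0) against 81.6 CPM (74.1 to 89.8), and Wfdc21 at 2.43 against 16.6 CPM. The ratios of S100a8 and S100a9 were thus smaller within these groups than over all Elane-high cells. Klf4 was at 160 against 0.765 CPM and Ms4a6c at 581 against 3.25 CPM within the same groups. Over all groups, Elane, Prtn3, Mpo and Ctsg differed less, with Elane at 7791 against 13612 CPM, Prtn3 at 6649 against 7951 CPM, Mpo at 7661 against 9820 CPM and Ctsg at 4132 against 6483 CPM. Within the 2 lower groups Prtn3 was higher in Irf8 cells, at 6084 against 4180 CPM, and Elane lower, at 5782 against 7720 CPM. The rule and the groups were both set on the sum of Elane and Prtn3, so their levels here describe the selection. At a like sum, higher Prtn3 goes with lower Elane. Prss57 was at 126 against 435 CPM over all groups and Ms4a3 at 1068 against 2269 CPM. Ly6c2 was higher, at 2053 against 789 CPM over all groups and 1990 against 223 CPM within the 2 lower groups, and had a UMI in all 50 Irf8 cells at 10000 UMIs. Cd34 was at 127 against 78.3 CPM over all groups, but at 153 CPM (132 to 176) against 138 CPM (128 to 148) within the 2 lower groups, with overlapping intervals. Kit was at 25.3 against 58.9 CPM, and Cebpa at 127 against 80.8 CPM. All 23 G2 and M phase genes compared had a ratio above 1, with a median log2 of 0.64, against 59.8% of all genes compared and a median of 0.08. Over all 481 cells the summed G2 and M phase genes had a Spearman correlation of 0.65 with a cell's UMIs, and the part of depth was not tested.

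**Figure D4:**
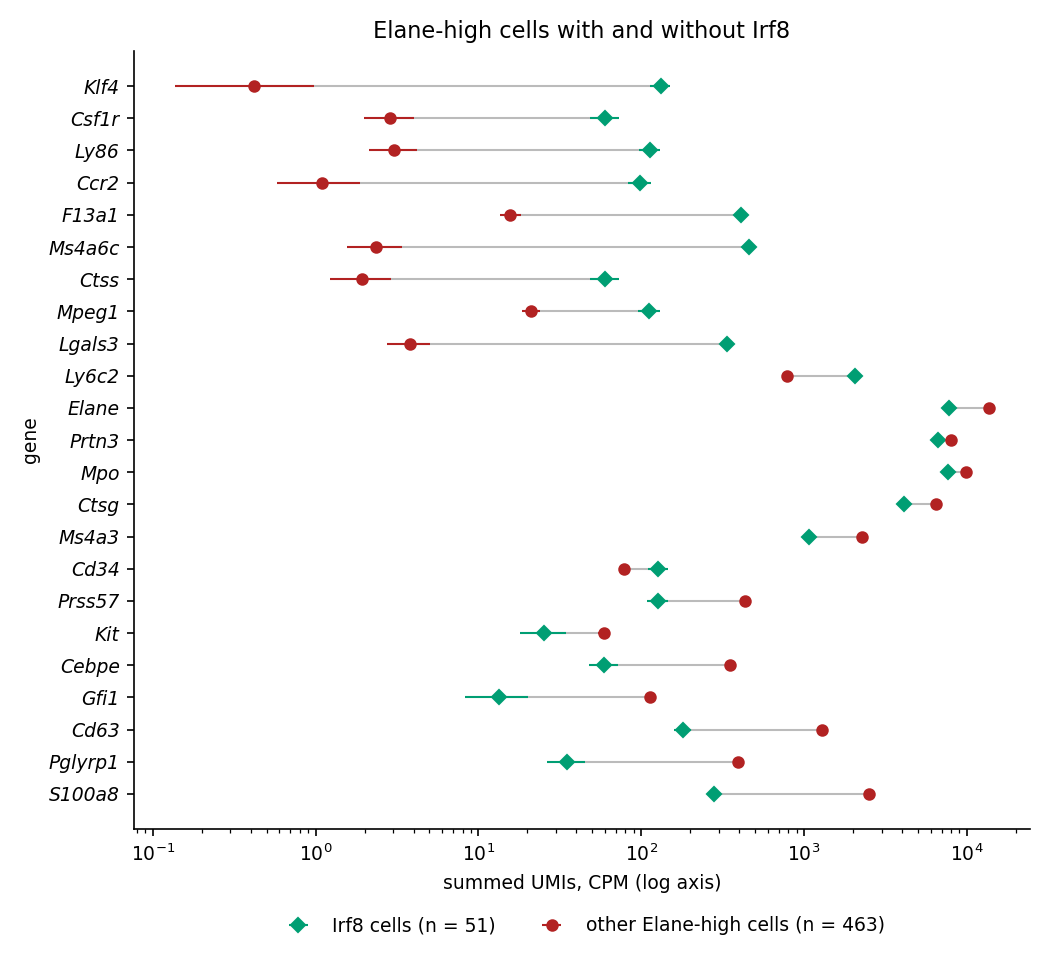
Summed UMIs in CPM (log axis) of 23 genes in 51 Irf8 cells (green) and the other 463 Elane-high cells (red), with 95% Poisson intervals for counting error. Monocyte genes such as Klf4 (132 against 0.421 CPM) are far apart, Elane, Prtn3, Mpo and Ctsg differ by less than 2-fold, and Gfi1, Cebpe, Cd63, Pglyrp1 and S100a8 are lower in Irf8 cells over all Elane groups. Elane and Prtn3 chose all of these cells.

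Irf8 and Cebpe were rarely abundant in the same cell. With each cell at 10000 UMIs, 1 of 481 cells had 3 or more UMIs of both, 42 had them of Irf8 alone, 262 of Cebpe alone and 176 of neither. With 1 UMI as the limit, 30 cells had both, 34 Irf8 alone, 382 Cebpe alone and 35 neither. The Spearman correlation between them over the 481 cells was -0.39, and -0.30 between Irf8 and Gfi1. Of basophil-gene cells, 2.94% had an Irf8 UMI and 1.62% a Cebpe UMI at the same depth, against 13.3% and 85.7% of Elane-high cells. Whether those UMIs in basophil-gene cells came from free RNA was not tested. The basophil-gene cells had a median of 14184 UMIs before they were drawn to 10000, against 25632.

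**Figure D5:**
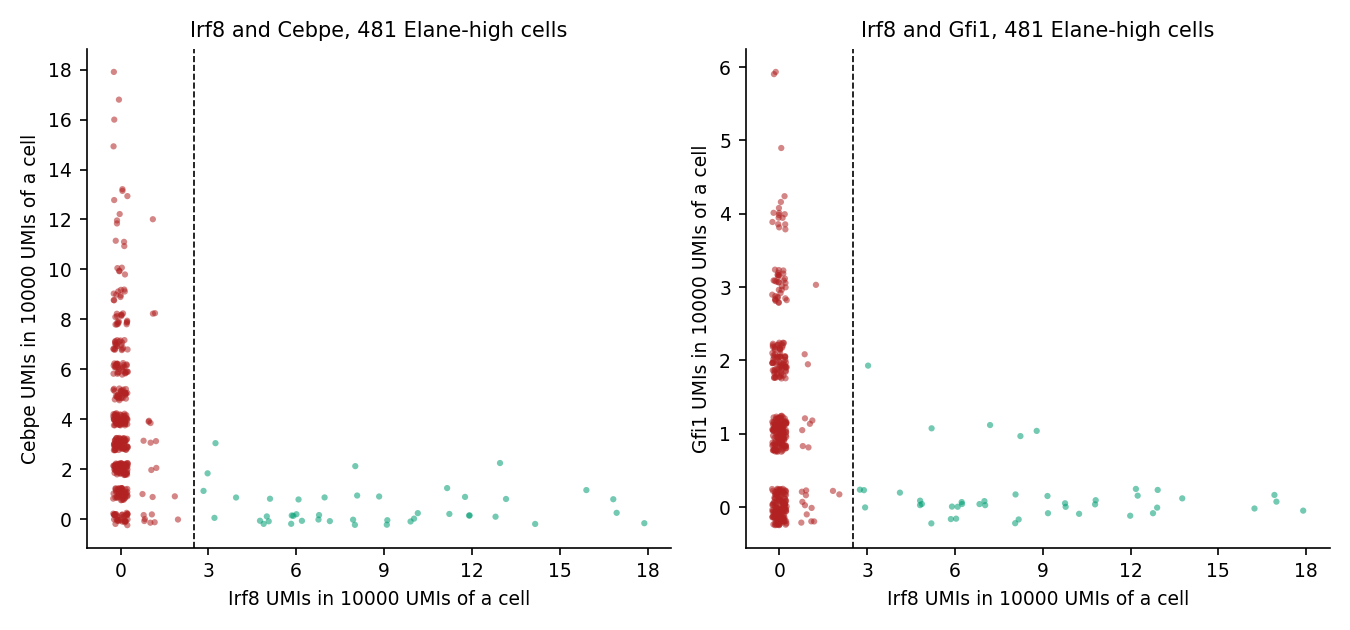
UMIs of Irf8 (horizontal axes) against Cebpe (left) and Gfi1 (right) in 481 Elane-high cells drawn to 10000 UMIs each, with a small random shift so that points do not hide each other. Cells with 3 or more Irf8 UMIs at this depth (green, right of the dashed line) lie along the bottom, and 1 of them also has 3 or more Cebpe UMIs.

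Irf8 cells were also set beside the 199 monocyte-gene cells, which were chosen by 6 genes of the monocyte branch list and limited to under 0.5% Elane and Prtn3. Irf8 was at 736 CPM in Irf8 cells and 679 CPM in monocyte-gene cells. The monocyte branch list summed to 2473 CPM in Irf8 cells and 6523 CPM in monocyte-gene cells, and the dendritic list to 245 and 27989 CPM. Cd74, the most abundant gene of the latter list in monocyte-gene cells (16155 CPM), was at 93.1 CPM in Irf8 cells, with 40.1% of its UMIs in 1 cell. The macrophage list summed to 86.7 CPM in Irf8 cells, where C1qa was at 35.5 CPM with 98.2% of its UMIs in 1 cell, and to 4223 CPM in monocyte-gene cells. The B lineage list summed to 174 CPM in Irf8 cells and 80.2 CPM in the other Elane-high cells, with Ighm, the immunoglobulin mu chain, at 130 against 33.4 CPM and in 66.0% against 24.6% of cells at 10000 UMIs. The B cell genes Cd79a, Vpreb3, Ebf1 and Pax5 were at 0 in Irf8 cells.

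Under the same rule, the cKIT- library held 2 such cells among 3538 with at least 2000 UMIs, or 0.0565% (0.00685% to 0.204%). They had 20912 and 17828 UMIs, 52 and 56 Elane UMIs, and 61 and 71 Prtn3 UMIs. Irf8 was present in both, with 15 and 13 UMIs, and Cebpe had 0 UMIs in both. With each cKIT+ cell drawn to 2000 UMIs before the rule, the cKIT+ library held 529 such cells. With so few cells no level is given for the cKIT- library, and the shallower depth of that library cannot be told apart from the sorted population.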

How the data were processed

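The authors sequenced 1 library for each sorted population (cKIT+ and cKIT-, both E-cadherin+) on the 10x Genomics platform. The counts the authors deposited are whole UMIs of a gene in a cell, not normalized. The submitters' processing notes name Cell Ranger 3.0.2 and mm10, and the annotation release is not given in the sources used here. The methods name version 3 of the 10x kit. Without replicates there was no test and no p-value.

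Counts were read as deposited in Python 3.11.15. Levels are UMIs summed over the cells of a set and scaled to its total UMIs (CPM), with exact Poisson intervals. Ratios of sums and shares of cells carry exact binomial (Clopper-Pearson) intervals. Intervals cover counting error, and the interval of a count of 0 reaches 0.274 CPM in Elane-high cells. Shares were compared after drawing each cell to a fixed number of UMIs (10000, 5000 or 2000), leaving out shallower cells, 33 of 514 at 10000. Doublets were scored with Scrublet in Scanpy 1.11.5 and kept. edgeR 4.0.16 was used for TMM scaling alone. Coordinates come from GENCODE M21 (GRCm38) and promoters from RefSeq (GRCm38.p6).

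The members and gene lists were chosen with earlier results of these data known. Named genes are the given markers, listed genes, the 12 with the largest ratio in each direction against the other cells, and the 10 in each direction between the outer Elane groups (at least 200 CPM). The Irf8 limit and the 10 genes in each direction for that split were chosen after values were seen. Alternatives covered the CPM minimum, scaling, depth, doublet scores, the study's cell limits and the Elane and Prtn3 limit. The ratio step was tested on simulated data.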

Additional observations from a re-analysis of the deposited data

How the results depend on the processing

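No paired analysis was possible because each sorted population was sequenced as a single library. The number of Elane-high cells was 403 to 529 under the alternatives tried. The counts of genes past a fold depended on the CPM minimum, since it sets which genes are compared. Against the other cKIT+ cells, 84 genes were higher and 282 lower at a minimum of 10 CPM, and 9 and 39 at 200 CPM. Against basophil-gene cells alone, 60 were higher. Between the outer groups of Elane-high cells, 189 were higher and 360 lower at 10 CPM, and 23 and 12 at 200 CPM. Dividing the cells into 2 groups in place of 4 gave 23 and 28. For the Irf8 split, a limit of 1 UMI in place of 3 gave 28 higher and 2 lower, and a limit of 5 gave 43 and 17. Within the 2 lower Elane groups alone, added after seeing the data, 58 were higher and 35 lower. Of 137 alternatives, 66 stayed within 1.5 times (counts) or within the counting interval (levels and shares) and 71 did not, 27 of them shares of cells with a UMI, taken at a fixed depth or with 2 UMIs as the limit. TMM scaling moved log2 ratios against the other cells by 0.01. Leaving out the cells with the highest Scrublet scores lowered Prss34 from 167 to 108 CPM and Cdh1 from 2.82 to 1.94 CPM. What separates Elane-high cells from others beyond counting error, across animals or sorts, cannot be given from 1 library.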
